A study of Mus musculus with 3 samples.

Results

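The Hox genes are homeobox genes that lie side by side in 4 clusters, Hoxa, Hoxb, Hoxc and Hoxd. They were followed here in 3 cultures of the mouse myoblast line C2C12, whose cells fuse into myotubes once serum is lowered. Members were chosen by name, as genes called Hoxa, Hoxb, Hoxc or Hoxd followed by a number, and 1 further matching gene is not analysed. Of the 38 members, 35 had at least 1 named probe, out of 18348 genes with a named probe on the array. Hoxc4, Hoxc6 and Hoxc11 had no named probe. The remaining 35 were covered by 45 probes, and 10 of them had more than 1 probe.

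RNA was labelled with Cy3 and hybridised to one-colour Agilent whole mouse genome arrays, 1 array per group. Neurogenic cellulates were C2C12 myotubes that had been broken up into smaller cells, given BIO and then kept for 7 days in neurogenic medium. The protocol for that step lists 250 nM reversine for 48 h and 1.5 µM all-trans retinoic acid along with N2 supplement. BIO cellulates had the same history up to the end of a 2-day exposure to BIO, an inhibitor of the kinase GSK-3, at 2.5 µM per the sample labels or 10 µM per the protocol. Both cellulate groups had passed through 8 days of myotube formation in 2% horse serum, 10 µM AraC against dividing myoblasts, and the microtubule drug myoseverin at 20 or 30 µM depending on the source. Myoblasts were untreated C2C12 cells and shared none of these steps. The groups therefore differ in several agents and in culture time at once, and single agents cannot be told apart. All 3 cultures come from 1 cell line, and the sources do not say how many dishes stand behind an array.

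Hox proteins are transcription factors that bind DNA through a homeodomain, usually with cofactors of the Pbx and Meis families, and give cells their position along the head-to-tail axis of the embryo. Within a cluster the genes are ordered by paralogue number. Low numbers are used towards the head and early in development, and high numbers towards the tail and in the limbs and genital tract. Retinoic acid is a well-known regulator of Hox genes in the vertebrate hindbrain and acts mainly on those with low numbers, while Polycomb and Trithorax proteins keep the clusters off or on. Mesoderm-derived cells in culture often keep the Hox genes of the body region they came from.

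A probe was called measured on an array when the scanner software marked it as well above background. Signals are given relative to the 75th percentile of the same array, so that 1 is that percentile. Signals of different genes cannot be ranked, because probes differ in brightness. Between 45.7% and 50.7% of 43379 non-control spots per array were well above background, and 0 were saturated. With 1 array per group no difference has an error between cultures, and no test was made. The only repeat measure came from probes spotted 10 times on each array. By their spread within arrays, 95% of single-spot ratios would lie within 1.39-fold to 1.50-fold for probes dimmer than the 75th percentile. For brighter ones they would lie within 1.22-fold to 1.27-fold. This spread leaves out variation between arrays and between cultures, so a ratio beyond it may still lie within that variation. A difference of at least 2-fold is called higher or lower below. "At least" before a fold marks a gene measured on 1 of the 2 arrays compared, where the fold is a lower bound. In bulk RNA, fewer cells using a gene and less of its RNA per cell cannot be told apart.

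The cultures carried muscle RNA in all 3 groups. Of 11 muscle markers, 10 were measured on every array, and Myf5 was on none. Their summed relative signal was 1817 in neurogenic cellulates, 2223 in BIO cellulates and 134 in myoblasts. Such sums follow the brightest probes, and Acta1 alone read 1059, 1110 and 20.2 in the same order. Of 13 neuron markers, 6, 7 and 7 were measured in the same order of groups, with summed signals of 56.4, 42.5 and 49.0. The neuron sum was higher in neurogenic than in BIO cellulates, but the list's median log2 ratio was -0.23, against -0.17 for all genes. Neurod1, Nefl, Syp and Snap25 were measured on none of the arrays. Nefm was measured in neurogenic cellulates alone, at 0.345, against 0.140 in BIO cellulates and 0.034 in myoblasts. Of 8 neuron markers compared, 1 was at least 2-fold higher and 0 lower in neurogenic than in BIO cellulates (all genes, 4.16% and 1.8%). Against myoblasts, 1 was higher and 1 lower in neurogenic cellulates (12.1% and 10.0%), and 3 and 1 in BIO cellulates (11.2% and 6.01%). Of 9 neural progenitor markers, 6, 7 and 7 were measured, and their summed signals were 154, 193 and 115. Of 4 hindbrain and spinal cord markers, 1, 2 and 2 were measured, with sums of 0.483, 0.858 and 0.475, and of 8 glial markers 5, 6 and 5, with sums of 2.39, 2.54 and 2.03. The part of cell composition in the Hox differences was not tested.

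Of the 35 Hox genes with a probe, 21 were measured on all 3 arrays, 5 on some and 9 on none. The neurogenic and BIO arrays both missed 12 of the 35, against 6048 of all 18348 genes, a similar share. The number measured was 23 in neurogenic cellulates, 22 in BIO cellulates and 24 in myoblasts. In the Hoxa cluster, 9 of 10 members were measured on every array, against 6 of 10 in Hoxb, 1 of 9 in Hoxc and 5 of 9 in Hoxd. Those measured on none were Hoxa11, Hoxb1, Hoxb8, Hoxb13, Hoxc5, Hoxc13, Hoxd1, Hoxd8 and Hoxd11. Measured genes came from the whole length of the clusters, with 4 of 7 genes of paralogues 1 to 3, 10 of 15 of paralogues 4 to 8 and 7 of 16 of paralogues 9 to 13 measured on every array.

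**Figure D1:**
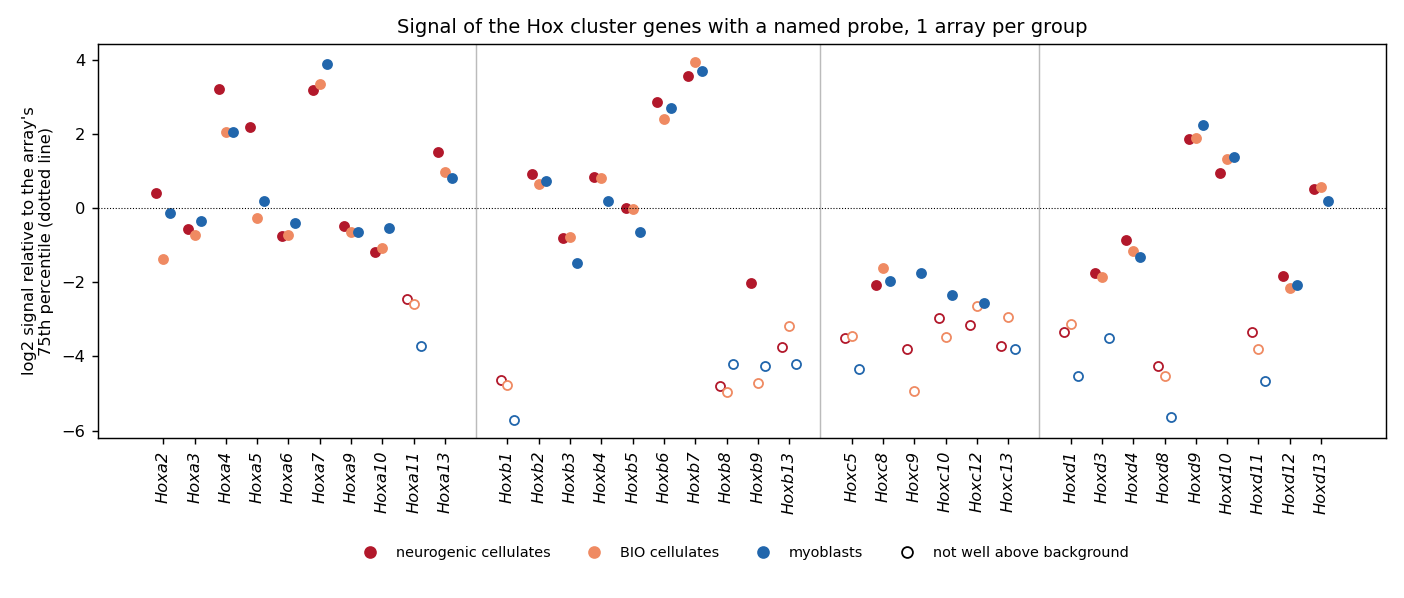
Log2 signal of each Hox gene with a named probe relative to the 75th percentile of its array (dotted line), ordered by cluster and paralogue number. Each point is 1 array, for neurogenic cellulates, BIO cellulates and myoblasts from left to right, and open points were not well above background. Hoxa2, Hoxa4 and Hoxa5 stand highest in neurogenic cellulates, with Hoxa5 at a relative signal of 4.53 there, against 0.827 in BIO cellulates and 1.15 in myoblasts.

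The comparison of neurogenic with BIO cellulates asks what the neurogenic step changed. Among 23 Hox genes with a ratio, 3 passed 2-fold upwards in neurogenic cellulates and 0 downwards. The 3 genes were Hoxa5, Hoxa2 and Hoxa4, all from the low-numbered side of 1 cluster. Over all 12255 genes with a ratio, 4.16% passed 2-fold upwards and 1.8% downwards. The 3 genes were measured on both arrays, and among genes measured on both, 2.45% of 10875 passed upwards and 1.41% downwards. The median log2 ratio was 0.10 for the Hox genes and -0.17 for all genes. No member of the Hoxb, Hoxc or Hoxd cluster passed 2-fold in either direction in this comparison.

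Hoxa5, which patterns the lower neck and upper thorax and is needed for lung development, had a relative signal of 4.53 in neurogenic cellulates, 0.827 in BIO cellulates and 1.15 in myoblasts. It was 5.48-fold higher in neurogenic than in BIO cellulates and 3.95-fold higher than in myoblasts. Among 12255 genes only 78 had a higher ratio to BIO cellulates. BIO cellulates were 1.39-fold lower than myoblasts, a log2 ratio of -0.47. This is within the 1.50-fold spread of spots for dimmer probes and beyond the 1.27-fold for brighter ones. The signals of Hoxa5 on these 2 arrays lay on either side of the 75th percentile.

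Hoxa2, which specifies the second pharyngeal arch and acts in the hindbrain, had relative signals of 1.32 in neurogenic cellulates, 0.388 in BIO cellulates and 0.906 in myoblasts. It was 3.39-fold higher in neurogenic than in BIO cellulates. BIO cellulates stood lowest of the 3 groups, as in Hoxa5, where the difference from myoblasts was smaller. The signal in BIO cellulates was 2.33-fold lower than in myoblasts, and neurogenic cellulates were 1.45-fold above myoblasts, short of 2-fold.

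Hoxa4, a gene of neck vertebra identity, had relative signals of 9.17 in neurogenic cellulates, 4.14 in BIO cellulates and 4.13 in myoblasts by its brighter probe. The folds were 2.21 over BIO cellulates and 2.22 over myoblasts, and the BIO and myoblast arrays gave nearly the same signal. The second Hoxa4 probe, measured on every array, read 0.848, 0.617 and 0.395 in the same order of groups. By that probe the log2 ratio of neurogenic to BIO cellulates was 0.46, so Hoxa4 passed 2-fold by 1 of its 2 probes, while the ratio to myoblasts was 1.10.

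Hoxa3, a regulator of thymus and parathyroid development that lies between Hoxa2 and Hoxa4, gave different answers by its 2 probes. Its brighter probe read 0.672 in neurogenic cellulates, 0.604 in BIO cellulates and 0.789 in myoblasts, a log2 ratio of 0.15 to BIO cellulates. The other probe read 0.826 in neurogenic cellulates, 0.285 in BIO cellulates and 0.347 in myoblasts. By this probe Hoxa3 was 2.89-fold higher in neurogenic than in BIO cellulates and 2.38-fold higher than in myoblasts. The brighter probe was used for all counts, so Hoxa3 is not among the 3 genes above. In the RefSeq annotation the span of Hoxa3 covers Hoxa4, Hoxa5 and Hoxa6, and which transcripts each probe reads was not tested.

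**Figure D2:**
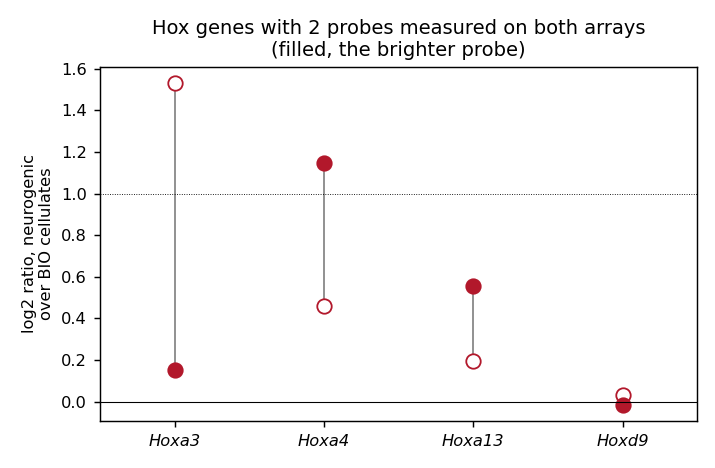
Log2 ratio of neurogenic over BIO cellulates for the 4 Hox genes with 2 probes measured on both arrays, 1 point per probe, filled for the brighter one. The dotted line marks 2-fold. The probes of Hoxd9 coincide near 0, those of Hoxa13 lie at 0.56 and 0.20, and those of Hoxa3 and Hoxa4 fall on opposite sides of 2-fold.

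From Hoxa6 onwards no gene of the cluster passed 2-fold by the main processing. With median scaling Hoxa6, Hoxa7 and Hoxa10 were at least 2-fold lower in both cellulate groups than in myoblasts. When scaled to probes measured on all 3 arrays, Hoxa13 passed 2-fold upwards in neurogenic cellulates against myoblasts, at a log2 ratio of 1.06. Hoxa6, which acts in thoracic patterning, had relative signals of 0.588 in neurogenic cellulates, 0.601 in BIO cellulates and 0.754 in myoblasts. Hoxa7, its neighbour in the cluster, read 9.06, 10.2 and 14.7 in the same order. For both genes the ratio of neurogenic to BIO cellulates, at -0.03 and -0.16 on the log2 scale, was within the spread of repeated spots. Hoxa9, best known for its role in blood stem cells, had signals of 0.711 in neurogenic cellulates, 0.633 in BIO cellulates and 0.634 in myoblasts. Hoxa10, which patterns the lumbar spine and the uterus, had signals of 0.442 in neurogenic cellulates, 0.473 in BIO cellulates and 0.686 in myoblasts, a 1.55-fold lower signal in neurogenic cellulates than in myoblasts. The last gene, Hoxa13, needed for digits and the genital tract, read 2.85 in neurogenic cellulates, 1.94 in BIO cellulates and 1.74 in myoblasts. Its ratio to BIO cellulates was 1.47-fold by the brighter probe, and the other probe gave a log2 ratio of 0.20.

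Promoter sequence is shown for the genes on either side of the boundary between Hoxa5 and Hoxa6, and for Hoxa2. Each is 250 bases before and 50 after the annotated start, from RefSeq on build GRCm38.p6, on the minus strand of chromosome 6 and written 5′ to 3′. Hoxa2 spans chr6:52164782-52165081, Hoxa5 chr6:52204538-52204837, Hoxa6 chr6:52208623-52208922 and Hoxa7 chr6:52218524-52218823. Capitals mark a retinoic acid receptor half-site (the letters AGGTCA, or else GGGTCA, or else AGTTCA, or else GGTTCA) or a site for a Hox and Pbx pair (TGATTNAT), on either strand.
Hoxa2: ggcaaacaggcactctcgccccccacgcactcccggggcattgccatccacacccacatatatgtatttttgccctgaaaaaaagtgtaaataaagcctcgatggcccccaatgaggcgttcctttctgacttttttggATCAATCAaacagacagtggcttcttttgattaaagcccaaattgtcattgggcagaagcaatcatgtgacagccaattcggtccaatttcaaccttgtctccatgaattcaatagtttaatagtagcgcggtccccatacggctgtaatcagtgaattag
Hoxa5: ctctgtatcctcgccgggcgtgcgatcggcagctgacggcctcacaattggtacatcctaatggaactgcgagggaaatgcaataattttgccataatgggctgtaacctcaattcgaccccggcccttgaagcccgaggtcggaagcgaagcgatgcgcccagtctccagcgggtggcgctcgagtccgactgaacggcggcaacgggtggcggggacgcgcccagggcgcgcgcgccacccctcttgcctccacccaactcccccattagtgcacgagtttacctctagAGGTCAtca
Hoxa6: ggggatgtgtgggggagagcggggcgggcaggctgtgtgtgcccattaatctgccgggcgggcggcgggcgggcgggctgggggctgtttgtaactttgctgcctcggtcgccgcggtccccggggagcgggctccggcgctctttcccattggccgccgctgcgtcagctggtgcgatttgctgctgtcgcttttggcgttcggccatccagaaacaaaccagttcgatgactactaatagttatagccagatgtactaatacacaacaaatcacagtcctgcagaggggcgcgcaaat
Hoxa7: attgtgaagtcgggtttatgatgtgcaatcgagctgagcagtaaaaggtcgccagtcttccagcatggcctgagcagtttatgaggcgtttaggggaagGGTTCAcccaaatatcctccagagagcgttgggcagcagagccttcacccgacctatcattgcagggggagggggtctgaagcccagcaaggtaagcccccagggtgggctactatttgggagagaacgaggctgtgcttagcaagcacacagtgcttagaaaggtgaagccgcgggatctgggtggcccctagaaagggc

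Hoxa2, at 45.7% G and C, held 1 Hox and Pbx site, read on the opposite strand as ATCAATCA, and no half-site. Hoxa5 held 1 half-site, AGGTCA, close to the end of its window and therefore after the start. Hoxa7, which was not higher in neurogenic cellulates, held 1 half-site as well (GGTTCA), and Hoxa6 held neither motif. At least 1 half-site was present in 43.7% of 32851 promoters of the same length and in 11 of 24 promoter windows of 22 Hox genes. The Hox and Pbx site was present in 3.22% of all promoters and in 2 of the 24, those of Hoxa2 and Hoxd11. Pairs of half-sites in the same direction, spaced by 1, 2 or 5 bases as retinoic acid receptors bind them, were in 0.588% of all promoters and in 0 of the 24. These are matches of letters in a short window and say nothing about binding or about enhancers elsewhere.

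In the Hoxb cluster the 6 genes measured on every array lay within 2-fold of BIO cellulates after the neurogenic step. Hoxb2, a hindbrain gene, had relative signals of 1.88 in neurogenic cellulates, 1.57 in BIO cellulates and 1.64 in myoblasts. The 3 genes after it, Hoxb3, Hoxb4 and Hoxb5, shared 1 pattern. Hoxb3 read 0.574 in neurogenic cellulates, 0.579 in BIO cellulates and 0.355 in myoblasts. For Hoxb4, used in blood stem cells as well as in the neck, the signals were 1.79 in neurogenic cellulates, 1.75 in BIO cellulates and 1.14 in myoblasts. Hoxb5 read 1.01 in neurogenic cellulates, 0.987 in BIO cellulates and 0.643 in myoblasts. Both cellulate groups thus lay together and above myoblasts, by 1.53-fold to 1.63-fold, which is beyond the spread of repeated spots but under 2-fold. When scaled to probes measured on all 3 arrays, Hoxb3 passed 2-fold in neurogenic cellulates against myoblasts, at a log2 ratio of 1.04. The order turned when arrays were scaled to their medians: the log2 ratios of BIO cellulates to myoblasts were then between -0.10 and -0.01, and those of neurogenic cellulates between -0.08 and -0.04. The second probe of Hoxb3, measured in neurogenic cellulates and myoblasts alone and dim, gave 0.60 for that pair on the log2 scale.

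Hoxb6 and Hoxb7 are thoracic genes with bright probes. Hoxb6 had signals of 7.22 in neurogenic cellulates, 5.31 in BIO cellulates and 6.53 in myoblasts. Hoxb7 had signals of 11.7 in neurogenic cellulates, 15.3 in BIO cellulates and 12.96 in myoblasts. Their ratios of neurogenic to BIO cellulates, 1.36-fold higher and 1.31-fold lower, went in opposite directions, both beyond the spread of repeated spots and under 2-fold. Hoxb8 was measured on no array by either of its 2 probes, and Hoxb1, the rhombomere gene spotted 10 times, was dim on all 3 as well.

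Hoxb9, a gene of the lower thorax, was measured in neurogenic cellulates alone. Its relative signal was 0.245 there, against 0.038 in BIO cellulates and 0.052 in myoblasts. This makes it at least 1.63-fold higher than in BIO cellulates and at least 3.27-fold higher than in myoblasts. Its second probe was not well above background on any array, with signals of 0.115, 0.045 and 0.028. The neurogenic array had more probes of this kind than the others. In genes with another probe measured on all 3 arrays, 111 of 2360 probes (4.70%) that were dim on the BIO and myoblast arrays were measured on the neurogenic array with at least 4 times the signal of the BIO array. For probes dim on the neurogenic and myoblast arrays, 35 of 2249 (1.56%) were measured on the BIO array with at least 4 times the myoblast signal. The part of this in the Hoxb9 signal was not tested. Nor was it tested for Nefm, Rarb and Psip1, which were also measured on the neurogenic array alone.

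**Figure D3:**
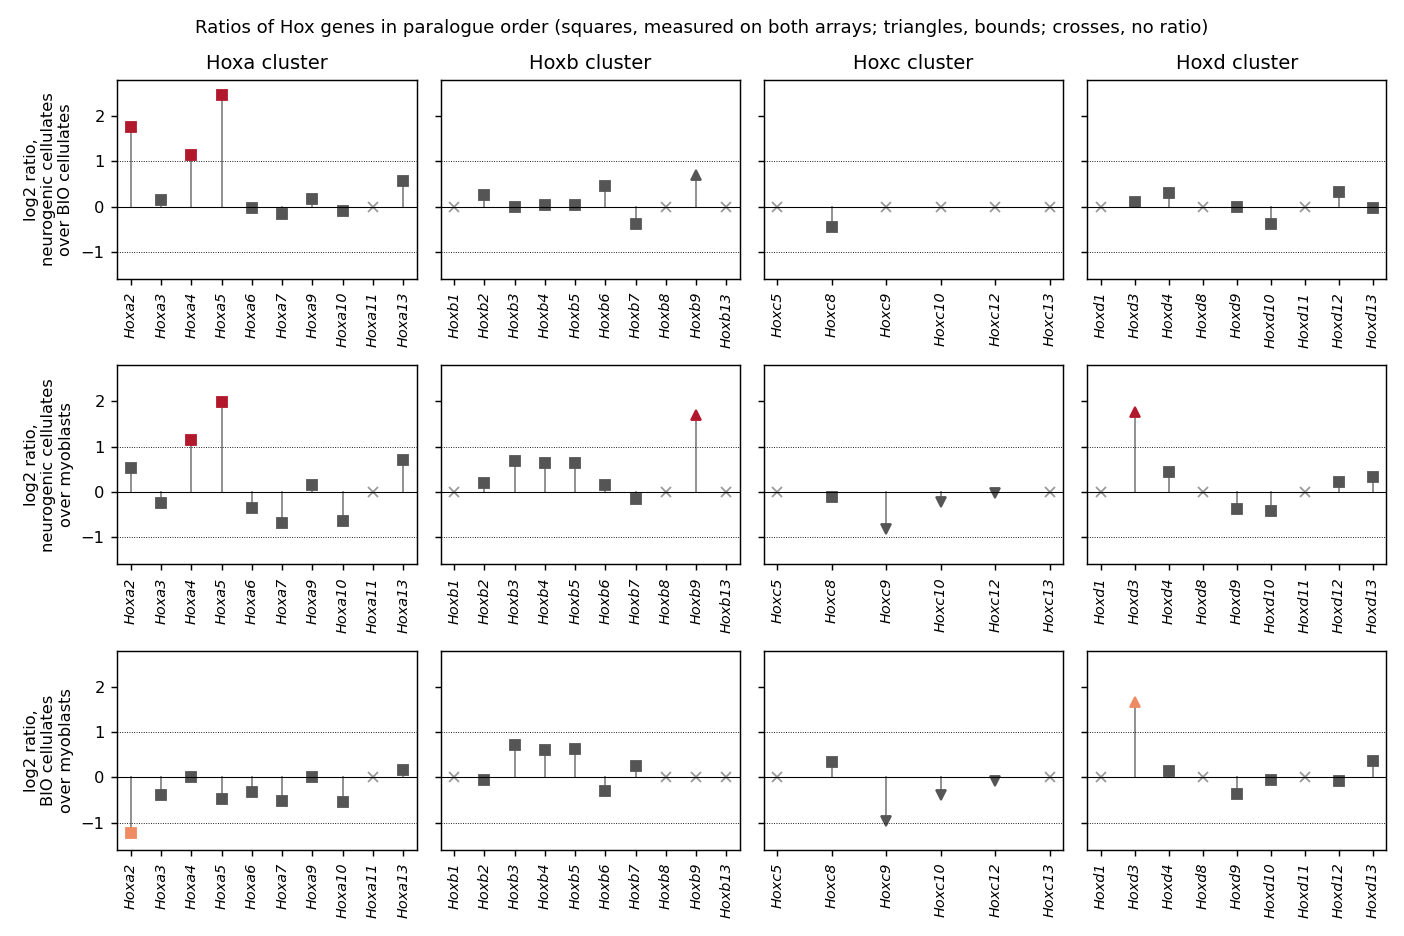
Log2 ratios of Hox genes in paralogue order for the 4 clusters (columns) in the 3 comparisons (rows). Squares were measured on both arrays, triangles are bounds, crosses have no ratio, and colour marks at least 2-fold. In the top row the 3 coloured points are Hoxa2, Hoxa4 and Hoxa5, and in the bottom row Hoxa2 lies at -1.22 and Hoxd3 at a bound of 1.65.

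Hoxc genes were the least represented. Hoxc8, a thoracic gene that also specifies motor neurons of the forelimb level, was the 1 member measured on all arrays, at 0.239 in neurogenic cellulates, 0.325 in BIO cellulates and 0.257 in myoblasts. Hoxc9, Hoxc10 and Hoxc12, tail-side genes, were measured in myoblasts alone. Hoxc9 read 0.071 in neurogenic cellulates, 0.033 in BIO cellulates and 0.294 in myoblasts. Relative to myoblasts it was lower by at least 1.75-fold in neurogenic cellulates and by at least 1.96-fold in BIO cellulates. These bounds fall just short of 2-fold, because the lowest signal well above background was 0.168 in neurogenic cellulates and 0.150 in BIO cellulates, against 0.075 in myoblasts. Without a filter on dim probes the log2 ratios of Hoxc9 to myoblasts were -2.05 in neurogenic cellulates and -3.17 in BIO cellulates. Hoxc10, by its brighter probe, read 0.127 in neurogenic cellulates, 0.090 in BIO cellulates and 0.196 in myoblasts, and Hoxc12 read 0.113, 0.160 and 0.170. Both were too close to background for a bound of more than 1.31-fold.

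The Hoxd cluster held 1 difference of 2-fold. Hoxd3, the lowest-numbered measured gene there, had relative signals of 0.297 in neurogenic cellulates, 0.277 in BIO cellulates and 0.088 in myoblasts, where it was not well above background. It was at least 3.38-fold higher in neurogenic cellulates and at least 3.15-fold higher in BIO cellulates than in myoblasts. Its second probe was dim on all arrays, and with the median over both probes the log2 ratios to myoblasts were 0.75 in neurogenic cellulates and 0.55 in BIO cellulates, both under 2-fold. Hoxd4, whose span overlaps Hoxd3, read 0.550 in neurogenic cellulates, 0.444 in BIO cellulates and 0.403 in myoblasts.

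The genes at the other end of the Hoxd cluster, used in the limbs, stayed under 2-fold in all 3 comparisons. Hoxd9 read 3.64 in neurogenic cellulates, 3.68 in BIO cellulates and 4.72 in myoblasts, and the log2 ratio of neurogenic to BIO cellulates by its second probe was 0.03. Hoxd10 had signals of 1.94 in neurogenic cellulates, 2.52 in BIO cellulates and 2.61 in myoblasts. Hoxd12 read 0.280 in neurogenic cellulates, 0.226 in BIO cellulates and 0.239 in myoblasts, and Hoxd13, the digit gene, read 1.43, 1.47 and 1.14. Across these 4 genes the log2 ratio of neurogenic to BIO cellulates ran between -0.38 and 0.31. Hoxd10, at -0.38, was also 1.34-fold lower in neurogenic cellulates than in myoblasts, both beyond the spread of repeated spots. With median scaling the log2 ratios to myoblasts were -1.10 in neurogenic and -1.08 in BIO cellulates for Hoxd9, and -1.16 in neurogenic cellulates for Hoxd10, past 2-fold. A second probe of Hoxd13 was dim on every array.

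Set against myoblasts, neurogenic cellulates had 4 of 26 Hox genes at 2-fold or more above, and 0 below. The 4 were Hoxa5, Hoxa4, Hoxb9 and Hoxd3, the last pair by bounds. Over 12855 genes, 12.1% passed 2-fold upwards and 10.0% downwards, so the Hox share on the higher side was near that of all genes. Among genes measured on both arrays, 2 Hox genes passed upwards and 0 downwards, with 9.35% and 11.0% of all 10885 genes doing so. The median log2 ratio was 0.18 for Hox genes and -0.06 for all genes. With each array scaled to its median the split was 2 higher and 6 lower, since this scaling moved the median of all genes to -0.79. The Hox median lay 0.24 above that of all genes under both scalings. Median scaling shifts the ratios of all genes measured on both arrays by the same amount, so this equal gap is no check. Under the other alternatives the gap lay between 0.14, without a filter on dim probes, and 0.40, when scaled to probes measured on every array. Hoxa5 stayed at least 2-fold higher under all 8 alternatives, with log2 ratios between 1.25 and 2.33, and Hoxa4 did under 6 of them. The filters on dim probes could not change either ratio, nor could the median over probes change that of Hoxa5, which has 1 probe.

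Set against myoblasts, BIO cellulates had 1 of 25 Hox genes at least 2-fold higher, Hoxd3, and 1 at least 2-fold lower, Hoxa2. Over 12829 genes, 11.2% passed 2-fold upwards and 6.01% downwards. Among genes measured on both arrays, 0 Hox genes passed upwards and 1 downwards, against 8.43% and 6.13% of 11185 genes. The Hox median was -0.07 and that of all genes 0.00. Median scaling gave 0 higher and 10 lower Hox genes, with the median of all genes at -0.65. The 3 comparisons share arrays, so Hoxa2 being low in BIO cellulates enters both of the comparisons in which it passed 2-fold.

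**Figure D4:**
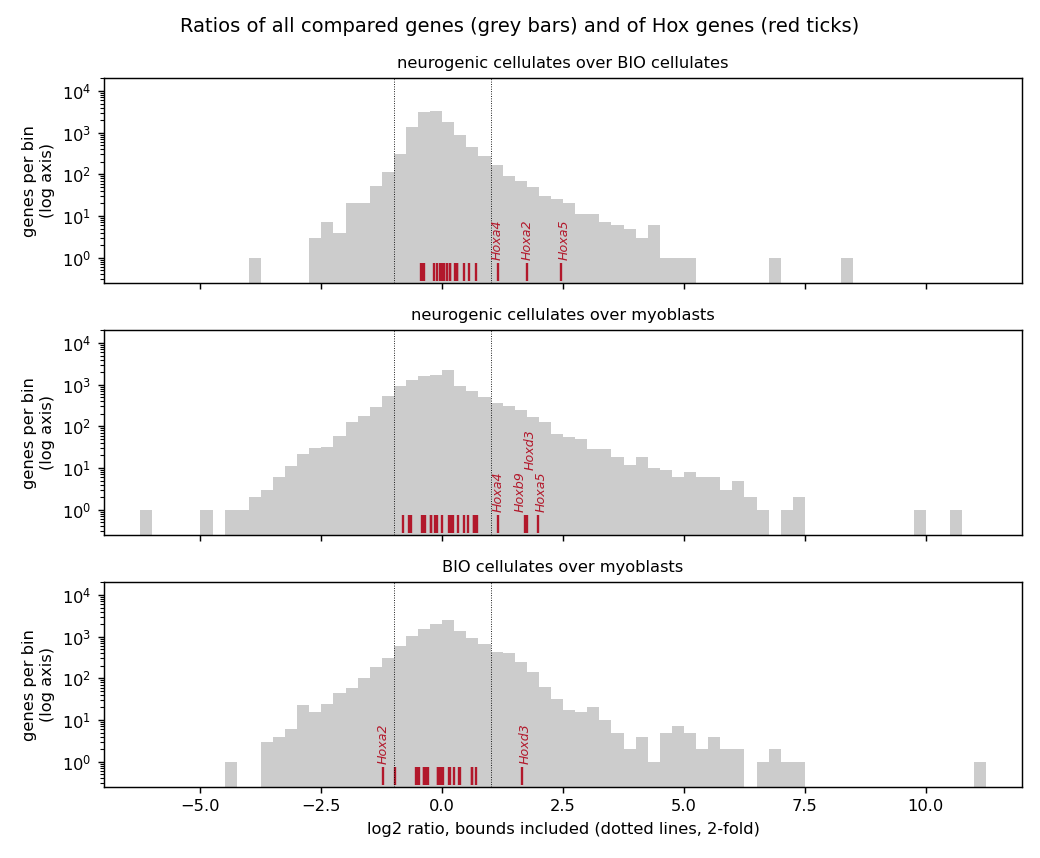
Log2 ratios of all genes compared (grey bars, genes per bin on a log axis) and of the Hox genes (red ticks) in the 3 comparisons, with 2-fold as dotted lines. Hox genes at least 2-fold different are named. Hoxa5 lies at 2.45 in the top panel, while most Hox genes lie within 2-fold of no difference in every panel.

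The genes known to work with or on the Hox clusters were read from lists. All 9 Pbx, Meis and Pknox cofactor genes were measured on every array, and 0 passed 2-fold in any comparison. Over all genes, 4.16% were higher and 1.8% lower in neurogenic than in BIO cellulates. Against myoblasts these shares were 12.1% and 10.0% in neurogenic cellulates, and 11.2% and 6.01% in BIO cellulates. With 9 genes, a count of 0 is not far from such shares. Meis2, which had the highest ratio of neurogenic to BIO cellulates among the cofactors, read 14.1 in neurogenic cellulates, 7.97 in BIO cellulates and 12.1 in myoblasts.

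Genes of retinoic acid signalling and metabolism included the largest ratios of neurogenic to BIO cellulates among these lists. Out of 14 with a ratio of neurogenic to BIO cellulates, 4 passed 2-fold upwards and 0 downwards, of which 3 are described. Over all genes 4.16% passed upwards and 1.8% downwards. The list's median log2 ratio was 0.23, against -0.17 for all genes. Cyp26b1, which breaks down retinoic acid, read 96.3 in neurogenic cellulates, 0.295 in BIO cellulates and 0.624 in myoblasts. Dhrs3, which reduces retinaldehyde, read 51.3, 0.441 and 0.758. Rarb, a retinoic acid receptor that is itself a retinoic acid target, was measured in neurogenic cellulates alone and was at least 2.17-fold higher there than in BIO cellulates. Against myoblasts, 6 of 15 were higher in neurogenic cellulates and 0 lower, Crabp1 and Cyp26a1 being the other 2. The shares over all genes were 12.1% and 10.0%. In BIO cellulates against myoblasts, Crabp1 was 2.97-fold higher and Cyp26b1 2.11-fold lower, out of 13, with 11.2% and 6.01% over all genes.

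Among upstream regulators, Cdx2, a homeobox gene that activates tail-side Hox genes, had signals of 2.04 in neurogenic cellulates, 2.97 in BIO cellulates and 5.67 in myoblasts, 2.79-fold lower in neurogenic cellulates than in myoblasts. It was the 1 gene past 2-fold among the Cdx and hindbrain regulators in any of the 3 comparisons. Cdx4 and Egr2 were measured on no array. Of 21 Polycomb genes compared, 4 were at least 2-fold lower in BIO cellulates than in myoblasts and 0 higher. Over all genes these shares were 6.01% and 11.2%. Ezh2, which methylates histone H3 to silence Hox clusters, read 3.85 in neurogenic cellulates, 3.72 in BIO cellulates and 18.2 in myoblasts. Phf19, a partner of Ezh2, read 0.825, 1.08 and 3.72, and Cbx2 and Kdm2b were the other 2. The second probe of Cbx2 went the other way, with a log2 ratio of 1.38 by dimmer signals. In neurogenic cellulates against myoblasts, 5 of 21 were lower, these 4 and Rbbp7, and 1 was higher, Phc2, at 7.24-fold. Over all genes 10.0% were lower and 12.1% higher. Between neurogenic and BIO cellulates 1 of 21 Polycomb genes passed 2-fold, Phc2, 4.61-fold higher by its only probe. All genes passed upwards in 4.16% and downwards in 1.8% of cases. The Trithorax list had 1 of 10 at least 2-fold higher in that comparison, Psip1, at least 2.04-fold and measured in neurogenic cellulates alone. Against myoblasts, 1 of 10 was higher in neurogenic cellulates, Psip1 by at least 4.08-fold, and 2 were lower. Ash2l was 2.42-fold lower and Dpy30 2.90-fold lower in neurogenic cellulates, although a second Ash2l probe, measured in neurogenic cellulates alone, read 0.241 there and 0.030 in myoblasts. BIO cellulates had 0 of 9 Trithorax genes past 2-fold from myoblasts.

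Genes next to the clusters were read as well. Of 21 compared between neurogenic and BIO cellulates, 0 passed 2-fold upwards and 1 downwards, Snx11 near Hoxb, lower by at least 2.14-fold. Over all genes 4.16% passed upwards and 1.8% downwards. Cbx3 gave different answers by its probes, both measured on every array. The brighter one, used for the counts, had a log2 ratio of -0.38 to BIO cellulates, and the other had 2.25. At the low-numbered side of Hoxa, Skap2 read 17.5 in neurogenic cellulates, 10.4 in BIO cellulates and 30.2 in myoblasts. It was 1.68-fold higher in neurogenic than in BIO cellulates, the direction of Hoxa2, Hoxa4 and Hoxa5, while the list's median log2 ratio was -0.34. Unlike Hoxa4 and Hoxa5, Skap2 was lower in neurogenic cellulates than in myoblasts, at a log2 ratio of -0.79. In BIO cellulates it was past 2-fold lower than in myoblasts, at -1.54. At the other side, Evx1 was measured in myoblasts alone. Against myoblasts, 1 of 22 was higher and 4 lower in neurogenic cellulates, and 2 of 22 were higher and 4 lower in BIO cellulates. Over all genes 12.1% were higher and 10.0% lower in neurogenic cellulates, and 11.2% and 6.01% in BIO cellulates. The lower genes included Cbx3 by its brighter probe, at -1.49 in neurogenic and -1.11 in BIO cellulates. Its other probe gave 1.59 and -0.66.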

How the data were processed

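Per the labels' protocols, 200 ng of total RNA per sample was amplified and labelled with Cy3. Scans of array design 014868 were read by Agilent Feature Extraction 10.7.3.1, per the file headers, giving linear intensity values, after background subtraction and detrending, and the headers name build mm9. The authors' deposited value table is on the log2 scale: against the scanner intensities of single-spot probes, its columns equal log2 intensity plus constants of 0.23 (neurogenic cellulates), 0.67 (BIO cellulates) and 0.00 (myoblasts). These columns have medians of 7.88, 7.77 and 7.42, are not centred by gene, and how the constants were set is not given in the sources used here. The constants lie close to the log2 75th percentile of myoblasts minus that of each array, at 0.22, 0.66 and 0.00. As an alternative, this table is therefore close to the main scaling. A flag per spot, scored by the software and deposited with the intensities, marks signals well above background.

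Control and outlier spots were dropped. Repeat spots were averaged per probe as log2 intensity minus the log2 of the array's 75th percentile (156, 115 and 181 intensity units in the same order). Probes were named by accession through RefSeq genes of GRCm38.p6 (26918 of 41174 probes), and a gene took its probe with the highest mean. For a bound, the dim array's value was its own signal there or, if larger, the faintest one flagged as above background on that array. A gene whose chosen probe was dim while another was not was left out of that comparison. The fold calculation was tested on simulated data. Python 3.11.15 and limma 3.58.1 (normexp, offset 50) were used. Precision is limited by having 3 arrays. The alternatives were other scalings, quantile normalization, normexp, the authors' table, other filters on dim probes and the median over probes.

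The rule let all Hox members be named, and 1 further gene that matches the name is not analysed here; given in full are those measured on all arrays or at least 2-fold different somewhere. The members and the other lists were chosen with earlier results of these data known. Results that rest on some genes of these lists are not reported here.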

Additional observations from a re-analysis of the deposited data

How the results depend on the processing

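The Hox differences between neurogenic and BIO cellulates held best. Hoxa5 and Hoxa2 were at least 2-fold higher there under all 8 alternatives, with log2 ratios of 2.01 to 2.63 and 1.03 to 1.94, and Hoxa4 under 7, at 0.80 with the median over its probes. The filters on dim probes could change none of these ratios, since all 3 genes were measured on both arrays. Hoxa5 and Hoxa2 have 1 probe each, so the median over probes was no check of them either. Without a filter on dim probes 5 Hox genes were higher in this comparison instead of 3. For neurogenic cellulates against myoblasts, the 4 higher genes became 2 with median scaling, 1 after normexp correction, 2 with genes measured on both arrays, and 9 without the filter. The 0 lower genes became 6 with median scaling, 1 after quantile normalization and 1 without the filter. For BIO cellulates against myoblasts, the 1 higher gene became 0 with median scaling, 0 after normexp correction, 0 with genes measured on both arrays, 0 with the median over probes and 5 without the filter. The 1 lower gene became 10 with median scaling, 2 after quantile normalization, 0 after normexp correction and 3 without the filter. Over all genes, median scaling moved the share of higher genes among those past 2-fold to 11.5% from 54.7% in neurogenic cellulates against myoblasts, and to 9.07% from 65.1% in BIO cellulates against myoblasts. Medians lie near background on these arrays, at 24.4, 17.9 and 17.1 intensity units for neurogenic cellulates, BIO cellulates and myoblasts, against lowest measured signals of 26.2, 17.3 and 13.6. No Hox gene at least 2-fold different by the main processing changed direction under any alternative. No paired analysis was possible because each group had 1 array.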
